A study of Equus caballus with 14 samples.

Results

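The 4 genes described here are the ones that leaned most with pregnancy status in the corpus luteum of the mare. They were chosen among 30371 genes in the table, of which 15437 had enough reads to be tested. ENSECAG00000041112 and ENSECAG00000042557 had the smallest unadjusted p for pregnancy at day 11 after ovulation, the first among genes higher in pregnancy and the second among genes lower. ENSECAG00000011854 and ENSECAG00000023115 were chosen in the same way at day 13, as higher and lower. Eligible genes averaged 1 CPM or more (CPM being counts scaled to a library of fixed size). Over all genes tested, without that minimum, they ranked 3, 1, 3 and 2 by p in their contrasts, in the order named. The ranking came from edgeR, which had no gene past an adjusted p of 0.05 on either day, so in that fit the 4 genes are the ends of a ranking and not a set of called genes. DESeq2 called 1 of them, ENSECAG00000042557, in the day 11 contrast that chose it. All 4 passed the filter on low counts.

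Genes carry only an Ensembl identifier in the deposited table. The RefSeq gene table used here pairs 0 of these identifiers with a symbol, so the products of the 4 genes are not named and their positions and sequences are not given. For the same reason the tissue label could not be set against marker genes.

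The corpus luteum forms from the ruptured follicle and secretes progesterone, which holds the uterus in a state fit for an embryo. In a mare that is not pregnant, prostaglandin from the uterine lining later ends the life of the gland. In a pregnant mare the embryo moves through the uterus during the period of maternal recognition of pregnancy, the prostaglandin release is held back and the gland persists. A biopsy of the gland at day 11 or day 13 asks whether its transcripts differ then with the presence of an embryo.

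The samples were 14 needle biopsies taken through the vaginal wall from healthy light breed mares with normal cycles. There were 4 libraries from non-pregnant mares at day 11 (NP11), 4 from pregnant mares at day 11 (P11), 4 from non-pregnant mares at day 13 (NP13) and 2 from pregnant mares at day 13 (P13). The sample titles name 6 mares, and 8 corpora lutea were told apart by the mare's name and the dates. The series labels give 8 mares enrolled, and the difference from the 6 named is not explained. A biopsy on each day exists for 6 of the glands, and so each day 13 gland had been biopsied before. No genotype, treatment or age is given. The groups are defined by status and day, but they also hold different mares: Gisela is in P11 alone, Roanie in NP11 alone and Kiwi in the non-pregnant groups alone. P13 holds 1 June and 1 August biopsy, and each other group 3 from June and 1 from August. The first gland of the mare Kate changes its label, from pregnant at day 11 (as P11 replicate 2) to non-pregnant on day 13 (as NP13 replicate 1). Its libraries were kept as labelled, and the fitted pregnancy fold changes are also given without this gland. Emma gave a pregnant and a non-pregnant gland, each on both days. Kate gave the gland above and a second one that is non-pregnant on both days. Libraries of 1 mare are not independent, and p-values that treat them so measure only the spread between these libraries.

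Total counts ran from 20182039 to 32186736 per library. The 4 genes had between 55 and 773 reads in any single library. On the log2 scale the spread within groups was larger than counting error for each of them. ENSECAG00000041112 had an SD within groups of 0.20 against 0.07 from counting, ENSECAG00000042557 0.62 against 0.13, ENSECAG00000011854 0.35 against 0.11 and ENSECAG00000023115 0.17 against 0.09.

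**Figure D1:**
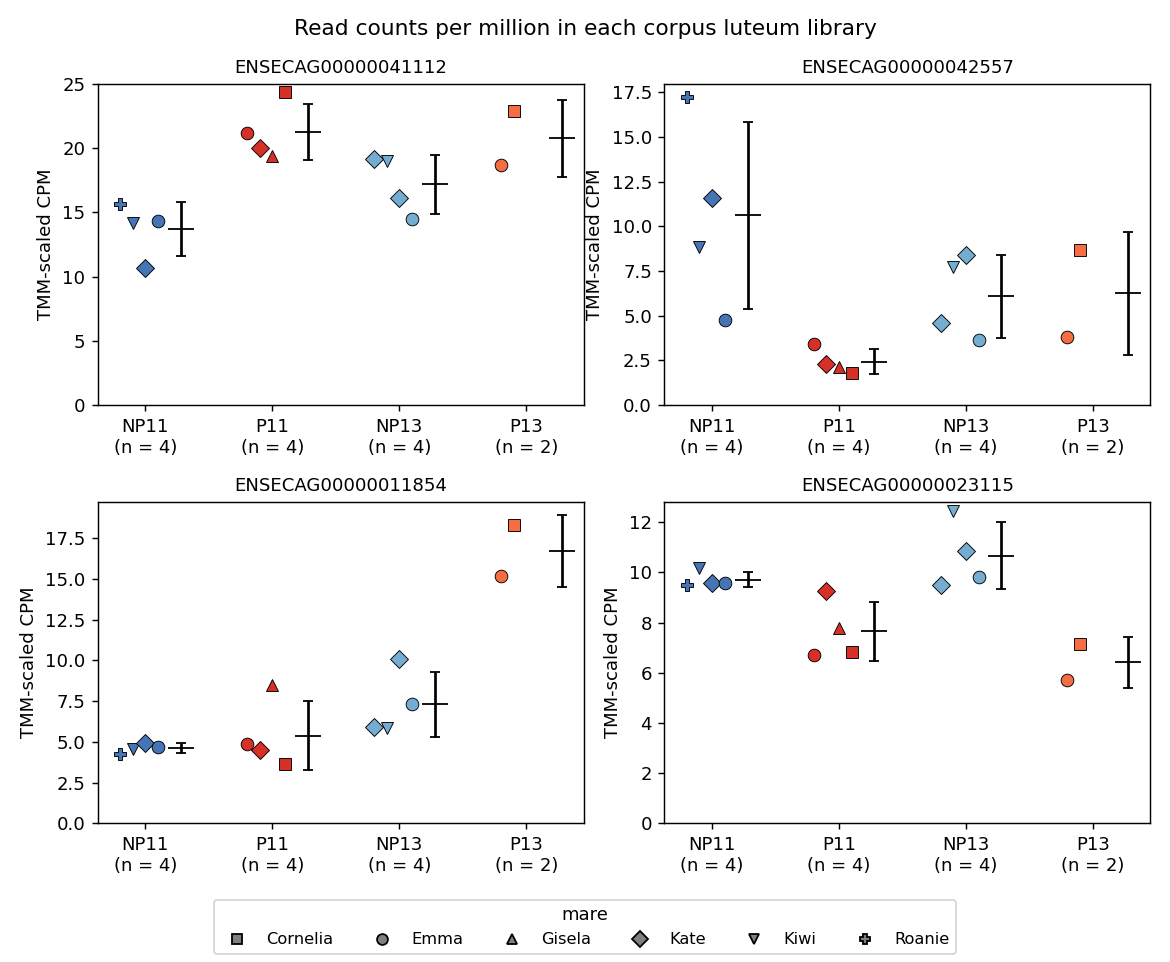
TMM-scaled CPM of the 4 genes in each of the 14 libraries, by group (NP non-pregnant, P pregnant, 11 and 13 the day after ovulation). Marker shapes are mares, and the bar at the right of each group is the mean with its SD. P11 lies wholly above NP11 for ENSECAG00000041112 and wholly below it for ENSECAG00000042557. P13 lies above NP13 for ENSECAG00000011854 and below it for ENSECAG00000023115. The choice of these genes favours such gaps.

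ENSECAG00000041112 was chosen as higher in pregnancy at day 11. In P11 it stood at 21.2 CPM in Emma, 20.0 in Kate, 19.4 in Gisela and 24.3 in Cornelia. In NP11 it stood at 15.6 CPM in Roanie, 14.2 in Kiwi, 10.7 in Kate and 14.3 in Emma. Both groups had a similar spread in CPM, and the lowest pregnant library was above the highest non-pregnant library. The P11 mean of 21.2 ± 2.19 CPM (SD, n = 4) was 1.55-fold the NP11 mean of 13.7 ± 2.11 CPM (SD, n = 4). At day 11, 0.862% of all genes tested were higher in pregnancy with no overlap between the groups. This gene, chosen by its p, was among them.

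The day 13 difference was not used in that choice. The day 13 libraries did enter it through their spread, because the edgeR fit estimated the spread over all 14 libraries. For each gene, outside the choice thus refers to the difference between the groups alone. At day 13 ENSECAG00000041112 was at 18.6 CPM in Emma and 22.9 in Cornelia in P13. In NP13 it was at 19.2 CPM in the first gland of Kate, 19.0 in Kiwi, 16.1 in the second gland of Kate and 14.5 in Emma. The groups overlapped, since the pregnant gland of Emma lay below 2 non-pregnant libraries. The log2 fold change was 0.27 ± 0.17 (SE), with a 95% interval from -0.09 to 0.63, so between a slight fall and the size seen at day 11. The adjusted p over all genes was 0.999 in edgeR's quasi-likelihood test. The exact two-sided permutation p was 0.267, in a design of 2 against 4 whose smallest p is 0.0667. With 2 pregnant libraries the size rests on each: the log2 fold change was 0.43 without P13 replicate 1 from Emma and 0.12 without P13 replicate 2 from Cornelia. In the June biopsies alone it was 0.05, and with the mare as a block 0.16.

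The narrower gap at day 13 went with higher values in 2 non-pregnant glands. ENSECAG00000041112 went from 10.7 to 16.1 CPM in the second gland of Kate and from 14.2 to 19.0 CPM in Kiwi. In the other 4 glands its log2 change lay between -0.18 and 0.02. The first gland of Kate held 20.0 CPM when labelled pregnant and 19.2 CPM when labelled non-pregnant. Its day 13 value was the highest of the NP13 libraries, and without this gland the log2 fold change at day 13 was 0.34.

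ENSECAG00000042557 was the gene chosen as lower in pregnancy at day 11, and its values spread most of the 4. In P11 it stood at 3.44 CPM in Emma, 2.33 in Kate, 2.12 in Gisela and 1.82 in Cornelia. In NP11 it stood at 17.2 CPM in Roanie, 8.85 in Kiwi, 11.6 in Kate and 4.78 in Emma. All 4 pregnant libraries were below all 4 non-pregnant ones, but the non-pregnant and the pregnant gland of Emma lay side by side at that edge. P11 averaged 2.43 ± 0.705 CPM (SD, n = 4), while NP11 averaged 10.6 ± 5.21 CPM (SD, n = 4). This is a log2 fold change of -2.13 ± 0.41 (SE). With the mare as a block this difference was -1.48 ± 0.46 (SE). At day 11, 0.946% of genes tested were lower in pregnancy with no overlap.

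At day 13, outside the choice, that lean was not seen. ENSECAG00000042557 was at 3.83 CPM in Emma and 8.69 in Cornelia in P13. In NP13 it was at 4.58 CPM in the first gland of Kate, 7.72 in Kiwi, 8.38 in the second gland of Kate and 3.67 in Emma. One pregnant library was near the lowest non-pregnant one and the other above the highest. P13 averaged 6.26 ± 3.44 CPM (SD, n = 2), while NP13 averaged 6.09 ± 2.31 CPM (SD, n = 4). Their log2 fold change was 0.04 ± 0.48 (SE). The edgeR adjusted p was 0.999 and the exact two-sided permutation p was 1, of a smallest possible 0.0667. The 95% interval of the log2 fold change ran from -0.98 to 1.06, within a fit that treats the libraries as independent. It leaves out the size at day 11, but the choice of the gene favoured a large size there. The interval thus cannot decide whether the difference changed between the days. The difference between the days was not tested, since day 11 chose the gene. The sign of the day 13 fold change rests on single libraries. The value was 0.53 without P13 replicate 1 from Emma and -0.67 without P13 replicate 2 from Cornelia. It was -0.14 without NP13 replicate 4 from Emma and -0.076 without NP13 replicate 1 from Kate. In the June biopsies alone, with 1 P13 library, it was -0.85, and without the first gland of Kate it was -0.059.

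Between the days ENSECAG00000042557 went from 1.82 to 8.69 CPM in Cornelia and from 2.33 to 4.58 CPM in the first gland of Kate. It went from 11.6 to 8.38 CPM in the second gland of Kate. Cornelia thus went from the lowest of the 6 glands to the highest. In Emma the gene stayed between 3.44 and 4.78 CPM in all 4 libraries, whatever the status or the day. Roanie, the NP11 library with the highest value, was sampled at day 11 alone. Without it the log2 fold change at day 11 was -1.79.

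ENSECAG00000011854 was chosen as higher in pregnancy at day 13. It was at 15.2 CPM in Emma and 18.3 in Cornelia in P13. In NP13 it was at 5.94 CPM in the first gland of Kate, 5.83 in Kiwi, 10.1 in the second gland of Kate and 7.34 in Emma. Both pregnant libraries were above the highest of the non-pregnant ones, as were those of 4.31% of all genes tested at this day. P13 averaged 16.7 ± 2.21 CPM (SD, n = 2), which was 2.29-fold the NP13 mean of 7.30 ± 1.99 CPM (SD, n = 4).

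At day 11, outside the choice, ENSECAG00000011854 was at 4.85 CPM in Emma, 4.52 in Kate, 8.49 in Gisela and 3.65 in Cornelia in P11. In NP11 it was at 4.27 CPM in Roanie, 4.58 in Kiwi, 4.96 in Kate and 4.68 in Emma. The non-pregnant libraries were close together, and the pregnant ones lay on both sides of them with Gisela apart at the top. The log2 fold change was 0.22 ± 0.25 (SE), with a 95% interval from -0.31 to 0.75. The edgeR adjusted p was 1 and the exact two-sided permutation p was 0.771, where 0.0286 is the smallest that 4 against 4 can give. The positive sign rested on Gisela: without P11 replicate 3 the log2 fold change was -0.092. It was 0.37 without P11 replicate 4 from Cornelia. With the mare as a block, where Gisela carries no weight, it was -0.18 ± 0.25 (SE).

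Of the 4 genes, this was the one that was higher at day 13 in 6 of 6 glands biopsied on both days. In the glands labelled pregnant on both days it went from 3.65 to 18.3 CPM in Cornelia, while Emma went from 4.85 to 15.2 CPM. In the non-pregnant glands it went from 4.96 to 10.1 CPM in the second of Kate, 4.68 to 7.34 CPM in Emma and 4.58 to 5.83 CPM in Kiwi. The first gland of Kate, labelled pregnant and then non-pregnant, went from 4.52 to 5.94 CPM. The 2 pregnant glands thus had the highest ratios, 4.94 in Cornelia and 3.10 in Emma, and the other 4 lay between 1.27 and 2.02. These ratios share their day 13 libraries with the contrast that chose the gene, so they are given with no test, and day cannot be told apart from an earlier biopsy.

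ENSECAG00000023115 was chosen as lower in pregnancy at day 13. It was at 5.71 CPM in Emma and 7.14 in Cornelia in P13. In NP13 it was at 9.50 CPM in the first gland of Kate, 12.5 in Kiwi, 10.9 in the second gland of Kate and 9.83 in Emma. Both pregnant libraries lay below all 4 non-pregnant ones, as did those of 5.05% of genes tested. P13 averaged 6.42 ± 1.02 CPM (SD, n = 2), against 10.7 ± 1.33 CPM (SD, n = 4) for NP13. The log2 fold change was -0.73 ± 0.17 (SE).

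This was the one gene of the 4 whose groups also did not overlap on the day that had not chosen it. Its spread at day 11 entered the fit behind the choice, which favoured a small spread. At day 11 ENSECAG00000023115 was at 6.70 CPM in Emma, 9.26 in Kate, 7.79 in Gisela and 6.83 in Cornelia in P11. In NP11 it was at 9.51 CPM in Roanie, 10.2 in Kiwi, 9.59 in Kate and 9.55 in Emma. All 4 pregnant libraries were below all 4 non-pregnant ones, although Kate was close below Roanie. P11 averaged 7.64 ± 1.18 CPM (SD, n = 4), while NP11 averaged 9.70 ± 0.304 CPM (SD, n = 4). The log2 fold change was -0.34 ± 0.14 (SE), or 0.787-fold, with a 95% interval from -0.64 to -0.05.

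The test of that difference did not pass correction over all genes. In edgeR the unadjusted p was 0.0256 and the adjusted p was 1. Lower genes with an unadjusted p under 0.05 made up 1.96% of all genes tested, and genes lower with no overlap 0.946%. The exact two-sided permutation p was 0.0286, the smallest that 4 against 4 libraries can give, and it is 1 of 4 such tests. The fitted difference of ENSECAG00000023115 was negative under all 18 alternatives, from -0.46 to -0.29, and over them the adjusted p ran from 0.916 to 1. With the mare as a block it was -0.29 ± 0.17 (SE), and the unadjusted p in edgeR rose to 0.123. That p was also over 0.05 in the June biopsies alone, at 0.101, and without either P11 replicate 1 or replicate 4, at 0.0738 each. With the mare as a random block in limma it was 0.0147. In edgeR without the first gland of Kate it was 0.00711, with an adjusted p of 0.992. The day 11 and day 13 libraries are not independent samples, because Emma and Cornelia supply both P13 libraries and 2 of the P11 libraries. Of the P11 glands that are not in P13, Gisela was at 7.79 CPM and Kate at 9.26, near the non-pregnant level.

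**Figure D2:**
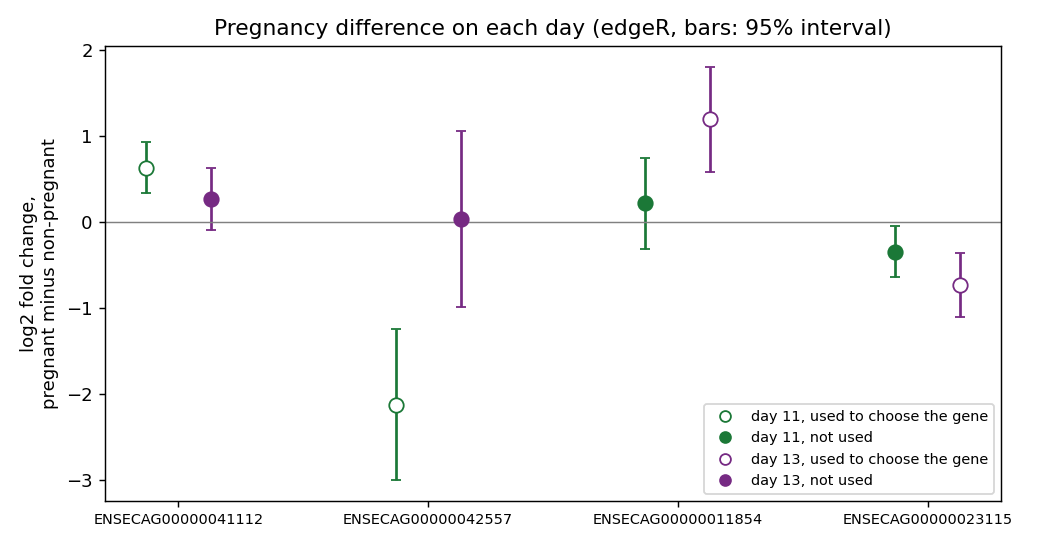
Log2 fold change of pregnant over non-pregnant libraries for each gene at day 11 (green) and day 13 (purple), from edgeR, with 95% intervals. Open symbols are the contrast that chose the gene and are shown as a description, and filled symbols are the other day, where the interval leaves out 0 for ENSECAG00000023115 alone and no adjusted p passes 0.05.

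Across the 4 genes, 1 of the 4 contrasts outside the choice had an unadjusted p under 0.05 and 0 had an adjusted p under 0.05. Over all 15437 genes edgeR called 0.000% for pregnancy on either day. Unadjusted, 336 genes (2.18%) were higher and 302 (1.96%) lower at day 11 with a p under 0.05. At day 13 these were 143 (0.926%) and 166 (1.08%). DESeq2 called 2 genes at day 11 and 0 at day 13. ENSECAG00000042557 was among the 2, with an adjusted p of 0.0018 in DESeq2, in the contrast that chose it. DESeq2 called none of the 4 genes on the day that had not chosen it, with an adjusted p of 1 for each. Because the tissue was a bulk biopsy, fewer cells of a type and less RNA per cell cannot be told apart in any of these differences.

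In 2 mares, Emma and Kate, both statuses can be compared within the animal on the same day after ovulation. In both, the pregnant gland was sampled first and the non-pregnant gland at a later date. Status thus cannot be told apart from sampling order or from earlier biopsies. The pregnant gland of Kate is the one labelled non-pregnant at day 13. At day 11, ENSECAG00000041112 was higher in the pregnant gland of both mares, by 0.56 on the log2 scale in Emma and 0.90 in Kate. In Emma at day 13 it was higher by 0.36. The counting error of these differences was 0.09 to 0.10 on the same scale. The sign of the day 11 pairs is favoured by the choice of the gene, so the Emma pair at day 13 is the only one outside the choice.

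ENSECAG00000042557 was very unequal between the mares. At day 11 its log2 difference was -2.28 in Kate and -0.47 in Emma, with counting errors of 0.21 and 0.19. In Emma at day 13 it was 0.06, the only pair whose sign the choice of the gene does not favour. Most of the within-mare contrast for this gene thus came from a single mare.

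For ENSECAG00000011854 the pregnant and non-pregnant glands at day 11 differed by 0.05 in Emma and -0.13 in Kate, both within a counting error of 0.17 and 0.18. At day 13 the pregnant gland of Emma was higher by 1.04, a sign favoured by the choice of the gene. ENSECAG00000023115 was lower in the pregnant gland of Emma, by -0.51 at day 11 and -0.78 at day 13. The counting errors were 0.14 and 0.15. In Kate at day 11 the gene differed by -0.05, within its counting error of 0.13. Its day 13 sign is likewise favoured by the choice, so the day 11 pairs are the only ones outside it. No mare but Emma has a pregnant and a non-pregnant library at day 13, and Emma's statuses fall in June and in August, so season and status cannot be told apart within that mare.

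**Figure D3:**
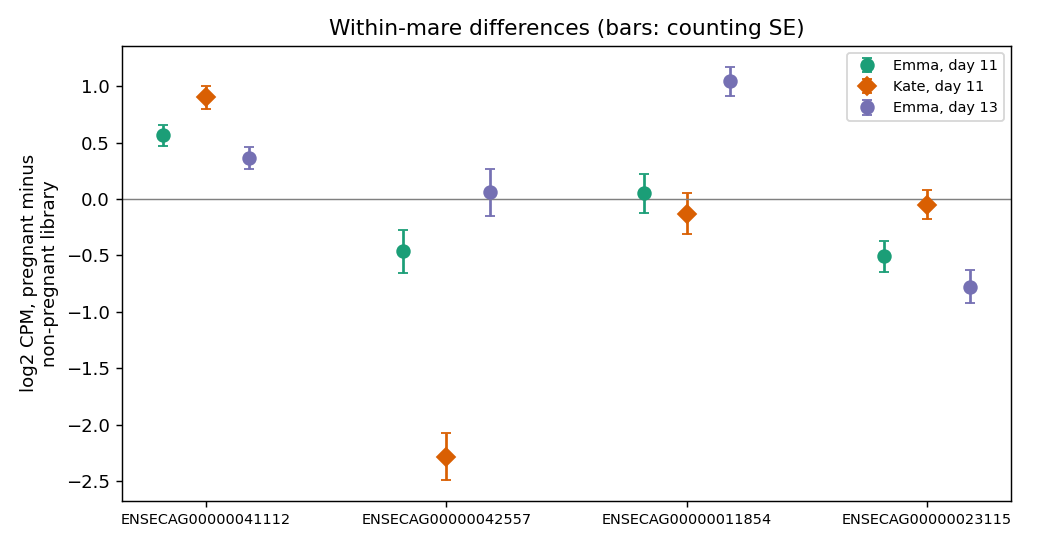
Log2 CPM of the pregnant minus the non-pregnant library of the same mare and day, with the counting standard error. ENSECAG00000041112 is at 0.36 to 0.90 in the 3 pairs, and ENSECAG00000042557 reaches -2.28 in Kate but 0.06 in Emma at day 13. For each gene the signs on the day that chose it are favoured by the choice.

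Followed within a gland, ENSECAG00000023115 changed little with the day. Its log2 change ran from -0.23 in the first gland of Emma to 0.29 in Kiwi. The first gland of Kate went from 9.26 to 9.50 CPM while its label changed. The 2 glands pregnant on both days were the lowest of the 6 at day 11. That they were also the lowest at day 13 is favoured by the choice of the gene.

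**Figure D4:**
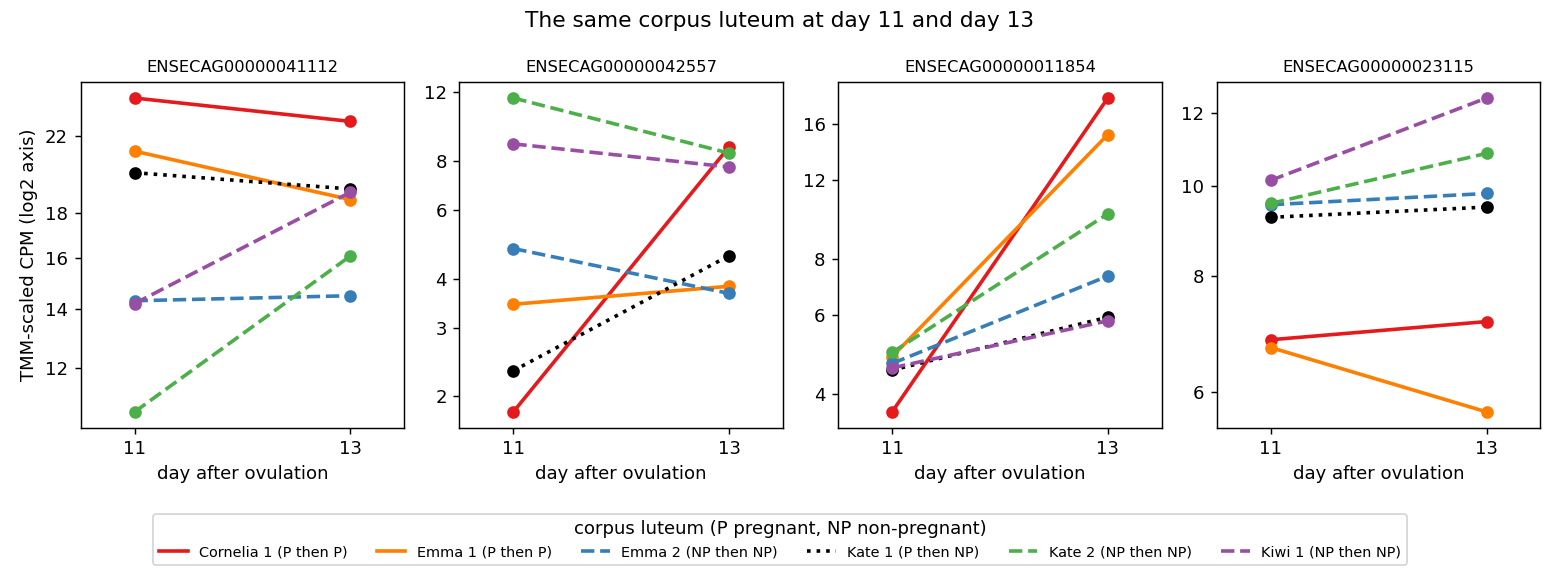
TMM-scaled CPM on a log2 axis at day 11 and day 13 in the 6 corpora lutea biopsied on both days (solid, pregnant on both days; dashed, non-pregnant on both; dotted, the first gland of Kate, whose label changes). ENSECAG00000011854 is higher at day 13 in all 6, most in the pregnant glands of Cornelia and Emma, and the values of ENSECAG00000023115 run nearly level.

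In order of group means, ENSECAG00000041112 ran from NP11 at 13.7 CPM through NP13 at 17.2 and P13 at 20.8 to P11 at 21.2. Neighbouring groups in that order overlapped. ENSECAG00000042557 ran from P11 at 2.43 CPM through NP13 at 6.09 and P13 at 6.26 to NP11 at 10.6. Here P11 lay below all libraries of the other groups, and the other neighbours overlapped. ENSECAG00000011854 ran from NP11 at 4.62 CPM through P11 at 5.38 and NP13 at 7.30 to P13 at 16.7, and only the last step had no overlap. ENSECAG00000023115 ran from P13 at 6.42 CPM through P11 at 7.64 and NP11 at 9.70 to NP13 at 10.7, with a gap between P11 and NP11 alone. The comparisons of this paragraph include the ones that chose the genes.

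Set against genes of similar abundance, within 1.5-fold of the mean CPM, the 4 genes differed in how steady they were. The SD within groups was at percentile 89.7 of such genes for ENSECAG00000042557, 65.4 for ENSECAG00000011854, 44.2 for ENSECAG00000041112 and 16.3 for ENSECAG00000023115. The ratio of the highest to the lowest library was 9.43 for ENSECAG00000042557 and 5.01 for ENSECAG00000011854, against 2.28 for ENSECAG00000041112 and 2.18 for ENSECAG00000023115. A small p favours a small spread, so these percentiles describe the genes and are not tests. The pair that varied least held the smaller differences, and the pair that varied most the larger ones.

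The genes next in line on the other side of the choice had p-values of the same order. At day 11, ENSECAG00000041112 had an unadjusted p of 0.000505 and the next higher gene, ENSECAG00000011534, 0.00144. ENSECAG00000042557 had 0.000148 and the next lower gene, ENSECAG00000014864, 0.000572. At day 13, ENSECAG00000011854 had 0.000966 and ENSECAG00000019665 had 0.000998. ENSECAG00000023115 had 0.000953 and ENSECAG00000012939 had 0.0014. The edge was thus thinnest for ENSECAG00000011854. The runner-up there averaged 6.52 ± 5.78 CPM (SD, n = 2) for P13, against 0.633 ± 0.294 CPM (SD, n = 4) for NP13, and was thus less even between the pregnant glands.

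The 4 genes did not move as a block. Over the 14 libraries, Pearson's r of log2 CPM was 0.47 between ENSECAG00000042557 and ENSECAG00000023115, both chosen as lower. Between ENSECAG00000041112 and ENSECAG00000011854, both chosen as higher, it was 0.22. Once group means were removed these became 0.34 and -0.47. The libraries share mares and glands, and the choice itself sets part of each r, so these values are descriptions.

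For each gene the 2 genes of most like pattern were found among 12996 others with a mean of at least 1 CPM, by Pearson's r of log2 CPM over the same 14 libraries. Being the highest of so many, each r is high in part by selection. Without the 2 libraries farthest from the median of the chosen gene, the r of the 8 matches ran from 0.64 to 0.86. ENSECAG00000011854 had the closest match, ENSECAG00000021775, with r = 0.91 and 0.77 once group means were removed. ENSECAG00000021775 ran from 4.31 CPM in Roanie to 249.9 CPM in Cornelia at day 13. Like ENSECAG00000011854 it was highest in the P13 libraries, and Gisela was the highest of the day 11 libraries for both. The second match was ENSECAG00000015794, with r = 0.89. It averaged 291 CPM in P13, 135 CPM in NP13, 82.7 CPM in P11 and 95.9 CPM in NP11.

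**Figure D5:**
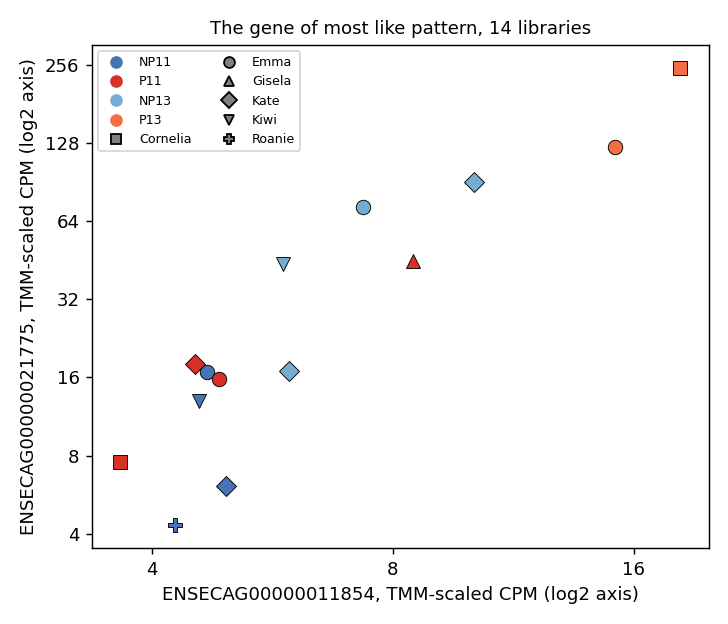
TMM-scaled CPM of ENSECAG00000011854 against ENSECAG00000021775 in the 14 libraries, both on log2 axes. Colours are groups and shapes are mares; the P13 libraries of Emma and Cornelia are highest on both axes, and Gisela is the highest of the day 11 libraries.

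ENSECAG00000042557 was most like ENSECAG00000018726, with r = 0.88 and 0.89 without group means. That gene varied less, from 6.78 to 11.6 CPM, and was also highest in Roanie. ENSECAG00000006445 followed with r = 0.86. ENSECAG00000023115 was most like ENSECAG00000020422, with r = 0.86. ENSECAG00000020422 averaged 1.73 CPM in P13 and 9.40 CPM in NP13, with its highest library, Kiwi at day 13, at 20.2 CPM. ENSECAG00000038258 followed with r = 0.84.

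The closest match of ENSECAG00000041112 was weaker, ENSECAG00000001900 with r = 0.80 and 0.55 without group means. Like ENSECAG00000041112, it was lowest in the NP11 library of Kate, at 20.4 CPM, and it reached 57.4 CPM in Cornelia at day 13. It held the lowest of these r, 0.64. ENSECAG00000019354 followed with r = 0.80.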

How the data were processed

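The deposited table holds whole, unscaled read counts of each Ensembl gene in 14 libraries, made from 1000 ng of RNA with poly(A) selection per the labels' protocols. The submitters' processing notes name Trim Galore (a read trimmer), STAR (an aligner) and the build EquCab3.0. The counting tool, the annotation and all versions are not given in these sources, so counts shared by near-identical or overlapping genes are uncertain.

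Columns were matched by library name, and mares and glands come from the titles. Replicate numbers follow sample order and pair nothing. The mare's name pairs libraries by design: deviations from group means correlated with r from 0.03 to 0.52 over 6 same-gland pairs. No libraries were copies, with a chi-square per degree of freedom of at least 21.9.

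Genes were kept by filterByExpr and scaled by TMM. Log2 CPM used a prior count of 2. edgeR 4.0.16 in R 4.3.3 fitted 1 mean per group over all 14 libraries, with its quasi-likelihood test and Benjamini-Hochberg adjustment over all genes tested. Exact permutation tests used mean log2 CPM. Alternatives used DESeq2 1.42.0 and limma 3.58.1. The scripts were tested on simulated counts. The members and comparisons were chosen with earlier results of these data known. Named beside them are the next gene by p and the 2 genes of highest r. Planned marker lists could not be run without symbols.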

Additional observations from a re-analysis of the deposited data

Results flagged for a closer look

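In 12 sets of 4 libraries, 1 value stood apart from the other 3: ENSECAG00000023115 was at 10.15 CPM in NP11 replicate 2, from Kiwi, against 9.51 to 9.59 in the others. Chance sets apart about 1 in 20 such sets. The counting error of that library was 5.74% for this gene.

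For ENSECAG00000042557 the change from day 11 to day 13 had opposite signs in every gland of the 2 statuses. It averaged 1.18 on the log2 scale in the 2 glands pregnant on both days and -0.34 in the 3 non-pregnant on both, a difference of 1.52. The pregnant average rests on Cornelia, at 2.21, while Emma was at 0.15 with a counting error of 0.20. By a check added after the data were seen, the difference was 0.49 without Cornelia and 2.55 without the pregnant gland of Emma. For ENSECAG00000041112 the averages were -0.14 and 0.34, a difference of -0.48. With no scaling beyond the library total, the second gland of Emma changes sign for ENSECAG00000041112, and its signs are then no longer opposite throughout. Neither difference was tested, since both share their day 11 libraries with the contrast that chose the gene. A choice of extreme day 11 differences by itself favours opposite changes by day 13.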

How the results depend on the processing

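Each fold change was recomputed under 18 alternatives at day 11 and 16 at day 13, and no pregnancy fold change outside the choice passed an adjusted p of 0.05 under any of them. DESeq2 called 2 genes for pregnancy at day 11 where edgeR called 0, ENSECAG00000042557 among them. With the mare as a replicate block, ENSECAG00000011854 at day 11 was -0.18 and ENSECAG00000042557 at day 11 was -1.48. Only Emma and Kate hold both statuses in that fit, while Cornelia and Kiwi enter through their day changes. The block changed no call at an adjusted p of 0.05. It did take the unadjusted p of ENSECAG00000023115 at day 11 from 0.0256 to 0.123 in edgeR. June biopsies alone gave -0.85 for ENSECAG00000042557 and -0.94 for ENSECAG00000023115 at day 13. Without the first gland of Kate, ENSECAG00000041112 was 0.65 at day 11 and 0.34 at day 13, and ENSECAG00000042557 was -2.12 and -0.059. On the same days ENSECAG00000011854 was 0.29 and 1.12, and ENSECAG00000023115 was -0.46 and -0.77. Leaving out 1 library, the range was -0.092 to 0.37 for ENSECAG00000011854 at day 11 and -0.67 to 0.53 for ENSECAG00000042557 at day 13. For ENSECAG00000023115 at day 13 it was -0.90 to -0.56, with its bounds set by either P13 library. The sign of ENSECAG00000042557 at day 13 reversed at -0.67, -0.14 and -0.076. Of 72 within-mare and within-gland values under other scalings, added after the data were seen, 69 kept their sign and size. With no scaling beyond the library total 3 changed sign: the second gland of Emma across days, at -0.077 for ENSECAG00000023115 and -0.099 for ENSECAG00000041112, and the Emma pair at day 11, at -0.080 for ENSECAG00000011854. With 2 P13 libraries, leaving 1 out leaves a lone sample assumed to vary like the other groups.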
